A study of Mus musculus with 40 samples.

Results

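Genes that mark the serotonin neurons of the raphe were followed through the 40 libraries of the series: Tph2, Slc6a4, Fev, Gata2, Gata3, Htr1a and Gch1. They were chosen by name and make up 7 of the 40213 gene symbols in the count tables, and all 7 are listed in every library. Midbrain and spinal cord were each sequenced in 5 groups of male C57BL/6N mice aged 8 weeks, with 4 libraries per group and tissue. The Con group received saline in place of MPTP and saline at the acupoint GB34 near the fibular head. All other groups received 4 intraperitoneal injections of MPTP at 20 mg/kg, a toxin of dopaminergic neurons. MPTP-Veh mice then had saline at GB34, whereas MPTP-SU mice had 4 injections there of SUEHP, a herbal extract for injection at acupoints, starting 1 week after the toxin. MPTP-SU+S mice were given SUEHP together with the CB1 antagonist SR141716A at 3 mg/kg, and MPTP-SU+T mice SUEHP with the PPARγ inhibitor T0070907 at 5 mg/kg. The labels spell the first of these SR141714A. The mice are wild-type animals with a toxin lesion and carry no transgene, and nothing in the sources used here states the plane at which the midbrain was cut from the brain.

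Serotonin is made from tryptophan in neurons of the raphe nuclei, which lie along the midline from the caudal midbrain into the medulla. TPH2 carries out the first, rate-limiting step, with tetrahydrobiopterin as its cofactor, and GCH1 makes the first intermediate of that cofactor. SLC6A4 is the transporter that takes released serotonin back up, and HTR1A is the receptor that slows the firing of these neurons, although many other neurons also carry it. FEV, also called PET1, is the ETS-type transcription factor that defines the serotonergic type, while GATA2 and GATA3 act in the precursors and also in GABAergic neurons of the midbrain and spinal cord. Because the dorsal and median raphe begin at the caudal end of the midbrain, their level in a midbrain sample can depend on how far caudally the tissue was cut. In bulk tissue, fewer cells of a type and less RNA per cell cannot be told apart.

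The promoters of Tph2, Slc6a4 and Fev are shown because the levels of these 3 genes moved together from library to library, and because FEV and GATA factors bind motifs that can be searched for. Each is the 250 bases before the start of the gene in RefSeq GRCm38.p6, written 5′ to 3′ on the strand of the gene. The capitals mark the GATA-type motif AGATAA and the ETS core GGAA, on either strand, so that a core on the other strand appears as its reverse complement. Tph2 lies at chr10:115185023-115185272 on the minus strand, Slc6a4 at chr11:76998347-76998596 on the plus strand and Fev at chr1:74885409-74885658 on the minus strand.
Tph2: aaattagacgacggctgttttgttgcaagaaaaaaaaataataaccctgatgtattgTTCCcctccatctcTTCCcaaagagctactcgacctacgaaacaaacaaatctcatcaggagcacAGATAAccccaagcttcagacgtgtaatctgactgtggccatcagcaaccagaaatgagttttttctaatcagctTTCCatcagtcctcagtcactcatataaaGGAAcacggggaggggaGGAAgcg
Slc6a4: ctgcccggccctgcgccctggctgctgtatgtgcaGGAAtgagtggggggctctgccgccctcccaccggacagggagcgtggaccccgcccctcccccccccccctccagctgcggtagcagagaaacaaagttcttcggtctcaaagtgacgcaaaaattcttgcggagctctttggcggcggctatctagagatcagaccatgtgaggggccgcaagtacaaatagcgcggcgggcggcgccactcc
Fev: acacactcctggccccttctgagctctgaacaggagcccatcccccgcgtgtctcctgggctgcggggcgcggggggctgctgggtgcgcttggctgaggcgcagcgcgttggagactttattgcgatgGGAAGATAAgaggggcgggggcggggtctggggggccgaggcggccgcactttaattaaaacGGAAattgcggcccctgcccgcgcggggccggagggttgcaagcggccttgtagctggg

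AGATAA occurred once in the window of Fev, 118 bases before the start, and once in that of Tph2, 128 bases before it. It was not found in the windows of Slc6a4, Gata2, Gata3, Htr1a or Gch1. Of 32851 RefSeq promoters of this length, 9.99% held AGATAA. The shorter GATA, which every AGATAA contains, was found in 53.6%, and in the windows of Tph2, Slc6a4, Fev, Htr1a and Gch1. GGAA was found 5 times for Tph2, 2 times for Fev and once for Slc6a4, and in 93.4% of all promoters, so its presence separates these genes from few others. The longer CGGAAA, in 7.4% of promoters, was found for Fev and Gata3. These are matches of letters, and they say nothing about binding in these tissues.

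The midbrain libraries held 11958200 to 16639823 counts and the spinal cord libraries 14642808 to 16615378. Values are given as CPM, the count as a fraction of its library scaled up by a fixed factor, with library sizes corrected by the TMM method. The labelled tissues carried their markers: the dopamine transporter Slc6a3 lay between 17.7 and 128 CPM in the midbrain libraries and reached at most 0.302 CPM in the spinal cord, whereas Hoxb3 lay between 19.4 and 26.5 CPM in the spinal cord and reached at most 1.77 CPM in the midbrain. A pair of midbrain libraries stood apart. MPTP-Veh replicate 4 had 1.35% of its counts on mitochondrially encoded genes, where the other 19 midbrain libraries had 9.92% to 17.5%. Con replicate 3 held 8 counts of Tph2 and 1 of Slc6a4. Fold changes of Tph2 and Gata3 for MPTP-Veh against Con are given with and without them. Those for MPTP-SU against MPTP-Veh are given without MPTP-Veh replicate 4 for Fev, Gata2 and Gata3 alone. The fold change in the midbrain minus that in the cord is given only with that library.

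Tph2 and Slc6a4 were expressed in the midbrain and were near the limit of detection in the spinal cord. Tph2 had a median of 16.8 CPM over the 20 midbrain libraries and 0.410 CPM over the 20 of the spinal cord, where it was counted 3 to 13 times per library. Slc6a4 was counted 1 to 533 times in the midbrain libraries and 0 to 5 times in those of the spinal cord, of which 12 had no count, which allows up to 3. Fev was counted 0 to 82 times in the midbrain and 1 to 9 times in the spinal cord. The spinal cord is reached by serotonergic fibres from the brainstem.

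Gata2 and Gata3 were present in both tissues. Gata2 ranged from 7.80 to 25.5 CPM in the midbrain and from 4.58 to 8.17 CPM in the spinal cord, and Gata3 from 8.20 to 133 CPM and from 0.546 to 2.07 CPM. Htr1a was similar in both, at 9.68 to 25.6 CPM in the midbrain and 11.1 to 16.4 CPM in the cord. Gch1 lay between 2.84 and 8.45 CPM in the midbrain and at 1.80 CPM or less in the cord, with a median of 1.35 CPM. In a fit of all 40 libraries, 5 of the 7 genes were higher in Con midbrain than in Con spinal cord at an adjusted p below 0.05 and a fold change above 1.5, where 7.39% of 17426 tested genes were called higher in the midbrain and 16.4% in either direction. The log2 difference was 4.22 ± 0.90 (SE, n = 4 per tissue) for Tph2 (adjusted p = 0.000376, edgeR quasi-likelihood test), or 4.61 without midbrain Con replicate 3, and 4.25 ± 0.45 for Gata3 (adjusted p = 2.61e-09). It was 1.52 ± 0.28 for Gch1 (adjusted p = 5.07e-05) and 0.73 ± 0.18 for Gata2 (adjusted p = 0.00166). That of Slc6a4, 5.63 ± 1.21 (adjusted p = 0.000497), depends on the small value that the fit gives to libraries without counts, as 3 of the 4 Con cord libraries had none. Htr1a, with a log2 difference of 0.46 ± 0.22 (adjusted p = 0.110), and Fev, with 1.32 ± 0.88 (adjusted p = 0.279), were not called.

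**Figure D1:**
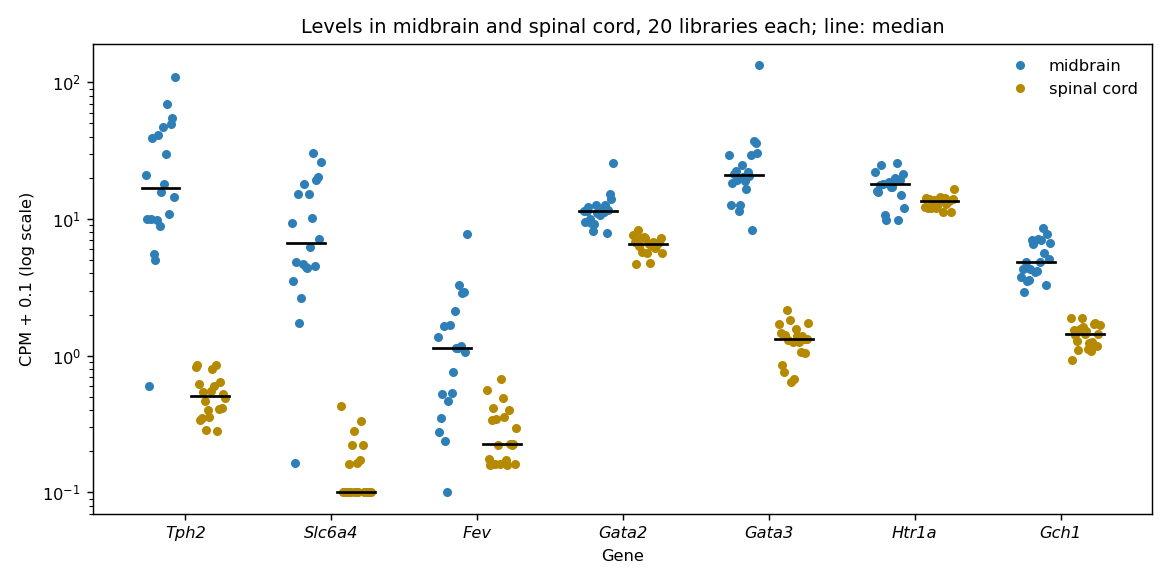
CPM of each gene in the 20 midbrain and 20 spinal cord libraries on a log axis, with 0.1 added so that libraries without counts can be drawn, and the median as a line. Tph2, Slc6a4 and Gata3 are separated between the tissues more widely than Htr1a, whose medians are 17.9 and 13.5 CPM.

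In the midbrain, the spread between libraries of 1 group was the first feature of these genes. Tph2 was measured at 20.9, 9.96, 0.505 and 9.91 CPM in the Con libraries 1 to 4. In MPTP-Veh it was at 49.3, 54.4, 14.4 and 110 CPM, and in MPTP-SU at 39.4, 5.46, 4.94 and 9.68 CPM. Of the 4 MPTP-Veh libraries, 3 thus lay above every Con and MPTP-SU library, and the other lay inside their range. Tph2 was at 41.2, 8.73, 15.6 and 47.3 CPM in MPTP-SU+S and at 17.9, 29.7, 69.0 and 10.8 CPM in MPTP-SU+T. Both antagonist groups ran from the level of most Con libraries to that of the MPTP-Veh libraries. By their means the groups were ordered MPTP-Veh at 57.0 ± 39.6 CPM (SD, n = 4), MPTP-SU+T at 31.9 ± 26.0, MPTP-SU+S at 28.2 ± 18.9, MPTP-SU at 14.9 ± 16.5 and Con at 10.3 ± 8.33, and each group overlapped with its neighbours in this order. Without MPTP-Veh replicate 4 the MPTP-Veh mean was 39.4 ± 21.8 CPM (SD, n = 3), and without Con replicate 3 that of Con was 13.6 ± 6.32 CPM. Over the 20 libraries Tph2 ran from 0.505 to 110 CPM, a 218-fold range that rests on Con replicate 3. It was a 22.3-fold range, from 4.94 CPM, without that library, and a 14.0-fold range without MPTP-Veh replicate 4 as well.

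Slc6a4, the transporter, followed the same libraries. It was at 9.23, 3.40, 0.0632 and 4.71 CPM in Con, at 19.3, 20.2, 6.99 and 26.2 CPM in MPTP-Veh and at 15.2, 1.64, 2.56 and 4.62 CPM in MPTP-SU. The library of MPTP-SU with the most Tph2, replicate 1, also had the most Slc6a4. Slc6a4 was at 17.8, 4.36, 4.30 and 15.0 CPM in MPTP-SU+S and at 6.17, 10.003, 30.2 and 4.44 CPM in MPTP-SU+T. The highest library of all for Slc6a4 was MPTP-SU+T replicate 3, which was second to MPTP-Veh replicate 4 for Tph2.

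Fev, the transcription factor of the serotonergic type, was counted far fewer times. Its counts were 20, 3, 4 and 7 in Con, 36, 43, 16 and 82 in MPTP-Veh and 23, 2, 0 and 5 in MPTP-SU. Only 1 MPTP-SU library, replicate 1, reached the range of the MPTP-Veh libraries. Fev was counted 23, 7, 10 and 32 times in MPTP-SU+S and 14, 16, 56 and 19 times in MPTP-SU+T. Counts this low carry a sampling error that is large beside the level itself, and they limit what can be said of single libraries.

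**Figure D2:**
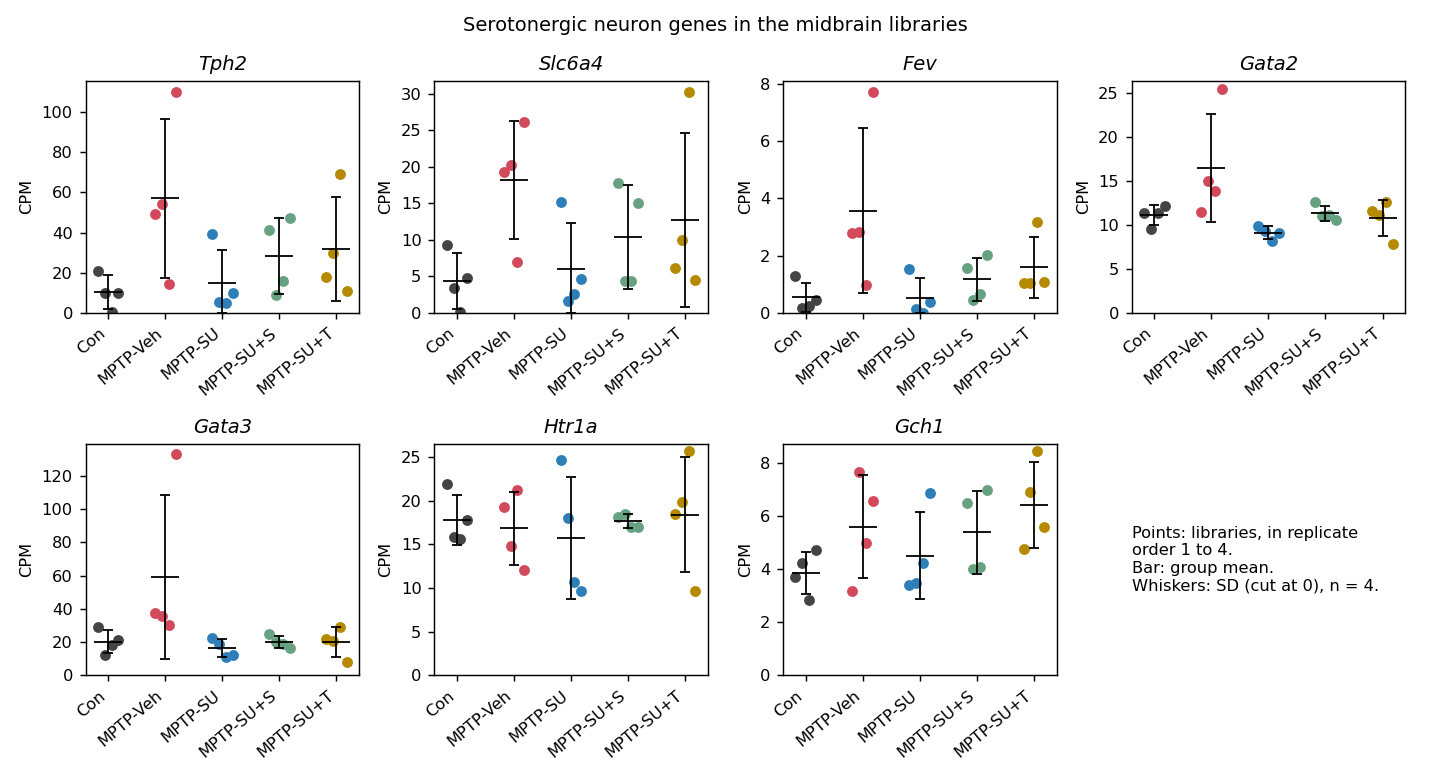
CPM of the 7 genes in the 20 midbrain libraries by group, on linear axes from 0, with libraries as points and the group mean with its SD as a bar with whiskers (n = 4). Tph2, Slc6a4 and Fev vary together within groups, and the highest Gata3 point is MPTP-Veh replicate 4 at 133 CPM.

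Within libraries these 3 genes kept a close relation. Across the 20 midbrain libraries the log2 CPM of Slc6a4 followed that of Tph2 with a Pearson r of 0.983 and a Spearman rho of 0.946 (permutation p = 1e-05 for each, the smallest that the 100000 permutations can give). After the group means were removed r was 0.974, and without Con replicate 3 and MPTP-Veh replicate 4, the libraries farthest from the median of Tph2, it was 0.974. For Fev, r was 0.839 (permutation p = 2e-05) and rho 0.950, and r was 0.929 without those libraries. The other members followed Tph2 less closely, with an r of 0.583 for Gata3 (permutation p = 0.0128), 0.583 for Gch1 (permutation p = 0.00586), 0.513 for Gata2 (permutation p = 0.0308) and 0.276 for Htr1a (permutation p = 0.235). In all, 6 correlations with Tph2 were computed and their p-values are unadjusted.

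Because a percentage within a library does not depend on its size, the counts of Slc6a4 and Fev were also expressed as a percentage of those of Tph2. This percentage compares libraries and not genes, because transcripts differ in length. Slc6a4 stood at a median of 38.9% of the Tph2 count, from 12.5% to 51.8%, and from 27.5% to 51.8% without Con replicate 3 and MPTP-Veh replicate 4. By group the mean was 34.6% ± 15.8 (SD, n = 4) for Con, 37.1% ± 10.2 for MPTP-Veh, 42.0% ± 9.72 for MPTP-SU, 38.1% ± 10.3 for MPTP-SU+S and 38.3% ± 4.98 for MPTP-SU+T. No comparison separated the groups, with two-sided exact permutation p-values of 0.771 for MPTP-Veh against Con, 0.514 for MPTP-SU against MPTP-Veh, 0.629 for MPTP-SU+S against MPTP-SU and 0.486 for MPTP-SU+T against MPTP-SU. Without those 2 libraries the level of Tph2 ranged 14.0-fold, while the Slc6a4 count stayed between 27.5% and 51.8% of that of Tph2. The libraries left out had the lowest percentages, at 12.5% for Con replicate 3 and 23.8% for MPTP-Veh replicate 4.

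Fev as a percentage of Tph2 had a median of 4.46%. It was 6.14% ± 0.858 (SD, n = 4) in MPTP-Veh and 2.55% ± 1.82 in MPTP-SU, and the 2 groups did not overlap (exact permutation p = 0.0286, two-sided, the smallest that 4 against 4 libraries can give, unadjusted over 8 such comparisons of ratios). The MPTP-SU value rests on 2, 0 and 5 counts of Fev in 3 of its libraries. The ratio in the antagonist groups was 4.31% ± 0.463 in MPTP-SU+S (exact permutation p = 0.0571 against MPTP-SU) and 5.97% ± 2.85 in MPTP-SU+T (exact permutation p = 0.0857). In Con it was 1.80% to 50.0%, with the highest value from the 8 counts of Tph2 in replicate 3, and MPTP-Veh did not differ from it detectably (exact permutation p = 0.943).

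**Figure D3:**
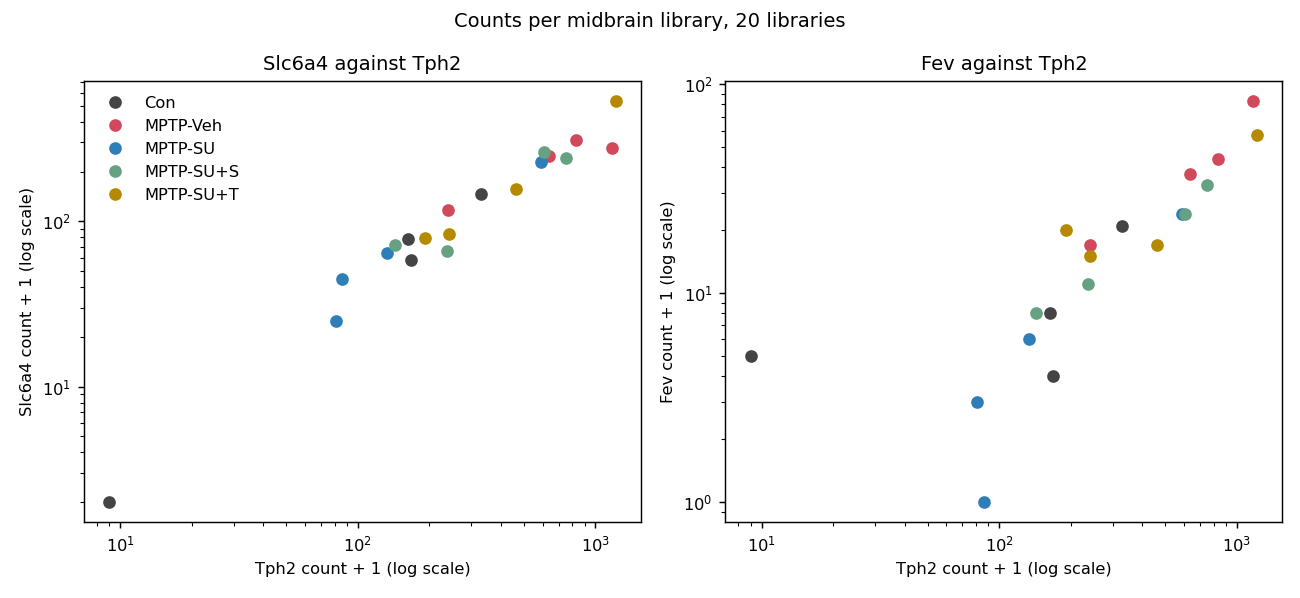
Counts of Slc6a4 and of Fev against counts of Tph2 in the 20 midbrain libraries, each with 1 added, on log axes, coloured by group. Libraries of all groups lie along 1 line for Slc6a4 (Pearson r 0.983 on log2 CPM), and the point at the lower left is Con replicate 3 with 8 counts of Tph2.

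The comparison of MPTP-Veh with Con asks what the toxin did to these genes. By fitted values, 6 of the 7 were higher in MPTP-Veh and none passed the threshold of an adjusted p below 0.05 with a fold change above 1.5, in a comparison in which 0.018% of 16629 tested genes were called. Their median log2 fold change was 1.54, against 0.00 over all genes tested. Tph2 had a log2 fold change of 2.46 ± 0.86 (SE, n = 4 per group, adjusted p = 0.134), Slc6a4 of 2.06 ± 0.83 (adjusted p = 0.162) and Fev of 2.71 ± 0.83 (adjusted p = 0.130, all from edgeR). Gch1 and Htr1a, which serve other neurons too, stood at 0.53 ± 0.29 (adjusted p = 0.262) and -0.07 ± 0.28 (adjusted p = 0.884). At an unadjusted p below 0.05 were 5 of the 7, beside 23.7% of all genes tested.

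Gata3 was the only one of the 7 whose groups did not overlap in this comparison. It was at 29.1, 12.6, 18.1 and 21.4 CPM in Con and at 37.3, 35.7, 30.4 and 133 CPM in MPTP-Veh. All MPTP-Veh libraries lay above all Con libraries, as they did for 6.37% of genes tested, while 12.4% were separated in either direction. The log2 fold change was 1.54 ± 0.43 (SE, edgeR adjusted p = 0.130, edgeR; exact permutation p = 0.0286 with n = 4 per group). Without MPTP-Veh replicate 4 it was 0.76 (adjusted p = 0.331), so that library gives much of its size. Gata2 was at 11.4, 9.48, 11.4 and 12.1 CPM in Con and at 11.5, 15.0, 13.9 and 25.5 CPM in MPTP-Veh, where the lowest library fell within Con. Its log2 fold change was 0.57 ± 0.19 (adjusted p = 0.133).

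The calls of MPTP-Veh against Con turned on the test and on single libraries. DESeq2 called Fev, with a log2 fold change of 2.77 (adjusted p = 0.0391), and Gata3, with 1.56 (adjusted p = 0.0257). Leaving out MPTP-Veh replicate 3, the lowest of its group for Tph2, brought Fev to an adjusted p of 0.0433 and Gata3 to 0.0432 in edgeR. The share of all genes called by DESeq2 or without that library is not given, so these calls cannot be set against it. Without both Con replicate 3 and MPTP-Veh replicate 4 the log2 fold change of Tph2 was 1.53 (adjusted p = 0.468), that of Fev 1.80 (adjusted p = 0.434) and that of Gata3 0.71 (adjusted p = 0.434). When the 4 MPTP groups were set against Con together, Tph2 had a log2 fold change of 1.52 ± 0.73 (SE, edgeR adjusted p = 0.384) and none of the 7 was called, where 1.27% of genes were. Without Con replicate 3 this value was 1.12 (adjusted p = 0.643).

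The comparison of MPTP-SU with MPTP-Veh shares the MPTP-Veh libraries with the one before, so the fold changes are not independent of it. Here 3 of the 7 genes fell, namely Fev, Gata2 and Gata3, where 9.1% of the genes tested were called lower and 13.5% in either direction. The median of the 7 log2 fold changes was -1.59, against 0.00 over all genes. Fev had a log2 fold change of -2.78 ± 0.84 (SE, n = 4 per group, adjusted p = 0.0312, edgeR). The enzyme and the transporter gave -1.94 ± 0.84 for Tph2 (adjusted p = 0.0973) and -1.59 ± 0.82 for Slc6a4 (adjusted p = 0.151), which did not pass. Htr1a stood at -0.10 ± 0.28 (adjusted p = 0.805) and Gch1 at -0.32 ± 0.29 (adjusted p = 0.422).

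Gata2 and Gata3 had the lowest adjusted p-values of the 7 here. Gata2 was at 9.93, 9.29, 8.13 and 9.02 CPM in MPTP-SU, and all 4 libraries lay below all of MPTP-Veh, as they did for 11.3% of the genes tested. Its log2 fold change was -0.85 ± 0.20 (SE, edgeR adjusted p = 0.0121). Gata3 was at 22.5, 19.1, 11.3 and 12.5 CPM in MPTP-SU, again below every MPTP-Veh library. Its log2 fold change was -1.85 ± 0.44 (adjusted p = 0.0138).

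These 3 calls were not stable. Without MPTP-Veh replicate 4 only Gata3 was called, with a log2 fold change of -1.07, while Fev stood at -2.09 (adjusted p = 0.0931) and Gata2 at -0.57, short of the fold threshold although its adjusted p was 0.0117. Without MPTP-SU replicate 1, the library rich in Tph2, the call extended to Tph2, so that 4 of 7 passed. The share of all genes called without that library is not given here. Leaving out MPTP-SU replicates 2, 3 or 4 ended the call of Fev, with adjusted p-values of 0.0906, 0.0702 and 0.0611. In a fit of the 8 libraries of the 2 groups alone none of the 7 was called (adjusted p = 0.223 for Fev, Gata2 and Gata3), and none of all genes tested was.

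SUEHP with an antagonist was compared with SUEHP alone. None of the 7 genes was called in either comparison by edgeR or DESeq2, and edgeR called 0 of 16629 genes in each, with 1.65% and 1.7% of genes at an unadjusted p below 0.05 and none of the 7 among them. All 7 fitted values were higher with the antagonist, with a median log2 fold change of 0.32 for MPTP-SU+S and 0.52 for MPTP-SU+T, where the median of all genes was 0.00 and 0.01. Tph2 had a log2 fold change of 0.93 ± 0.83 (SE, n = 4 per group, adjusted p = 1.00, edgeR) with SR141716A and of 1.10 ± 0.83 (adjusted p = 1.00) with T0070907. Fev gave 1.20 ± 0.87 and 1.65 ± 0.85 (adjusted p = 1.00 for each). Gata2 was at 12.6, 11.003, 11.1 and 10.6 CPM in MPTP-SU+S, above all 4 MPTP-SU libraries (1.14% of genes tested were separated in this direction), with a log2 fold change of 0.32 ± 0.20. Gata3 was at 24.7, 20.1, 18.8 and 16.5 CPM in MPTP-SU+S and overlapped with MPTP-SU. Gata2 in MPTP-SU+T, at 11.6, 11.2, 12.6 and 7.80 CPM, and Gata3, at 22.1, 20.6, 29.4 and 8.20 CPM, each had their lowest library below all of MPTP-SU.

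Each of the SUEHP groups was also set against Con, and none of the 7 genes was called, where 0.764% of genes were with MPTP-SU, 0.704% with MPTP-SU+S and 0.156% with MPTP-SU+T. These comparisons share the 4 Con libraries. Tph2 had a log2 fold change of 0.53 ± 0.84 (SE, edgeR adjusted p = 0.823) for MPTP-SU, 1.45 ± 0.84 (adjusted p = 0.525) for MPTP-SU+S and 1.63 ± 0.84 (adjusted p = 0.545) for MPTP-SU+T. Without Con replicate 3 these were 0.13, 1.05 and 1.23. The fold changes of Gata2 and Gata3 lay between -0.31 and 0.03 on the log2 scale in all 3 groups, and Gch1 with MPTP-SU+T was alone among the 7 genes in these comparisons at an unadjusted p below 0.05. Gch1 was at 4.75, 6.91, 8.45 and 5.58 CPM in MPTP-SU+T and 3.69, 4.23, 2.84 and 4.71 CPM in Con. The MPTP-SU+T libraries lay above all Con libraries, as for 6.19% of genes tested, with a log2 fold change of 0.73 ± 0.29 (adjusted p = 0.378, edgeR; exact permutation p = 0.0286, n = 4 per group).

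Htr1a and Gch1 had small fitted changes in the comparisons with MPTP-Veh. Mean Htr1a was 17.8 ± 2.91 CPM (SD, n = 4) for Con, 16.8 ± 4.17 for MPTP-Veh, 15.7 ± 6.99 for MPTP-SU, 17.6 ± 0.765 for MPTP-SU+S and 18.4 ± 6.60 for MPTP-SU+T. Its lowest libraries, at 9.68 CPM each, were MPTP-SU replicate 4 and MPTP-SU+T replicate 4, and its highest, at 25.6 CPM, was MPTP-SU+T replicate 3. The group means of Gch1 ran from 3.87 ± 0.801 CPM in Con through 4.51 ± 1.63 for MPTP-SU, 5.39 ± 1.57 for MPTP-SU+S and 5.61 ± 1.95 for MPTP-Veh to 6.42 ± 1.62 for MPTP-SU+T, with overlap between all neighbours in that order.

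**Figure D4:**
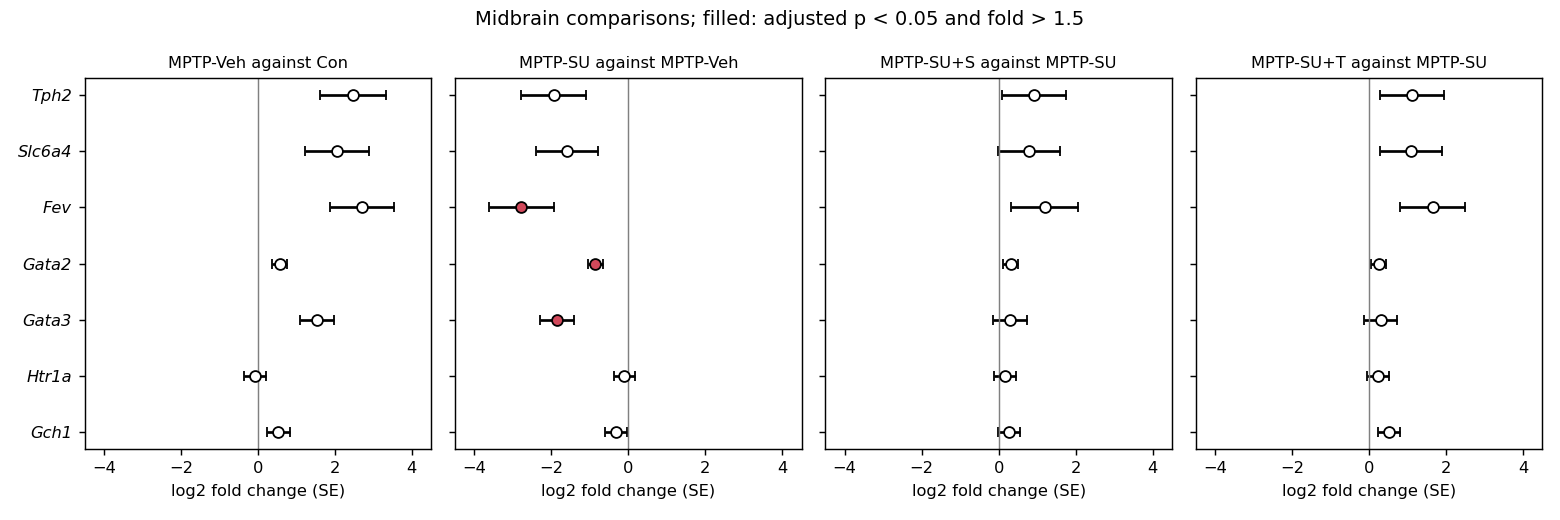
Fitted log2 fold changes of the 7 genes in 4 midbrain comparisons, with SE as whiskers, filled where the adjusted p was below 0.05 and the fold above 1.5. Filled points are Fev, Gata2 and Gata3 in MPTP-SU against MPTP-Veh, and the values of Tph2, Slc6a4 and Fev in the first 2 panels lie on opposite sides of 0 with wide errors.

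None of these genes was called in the spinal cord. There, 5 of the 7 genes passed the filter on low counts, with Slc6a4 and Fev left out, and none of the 5 was called by edgeR or DESeq2 in any of the 8 comparisons, with 1 value, that of Gata3 for MPTP-SU+S against MPTP-SU, at an unadjusted p below 0.05. Of 16682 genes tested, 0% were called in 4 of these comparisons, 0.024% in MPTP-SU+T against MPTP-SU, 0.03% in MPTP-SU+S against Con and 0.00599% in each of the other 2. All fitted log2 fold changes lay between -0.82 and 0.55 with adjusted p-values of 0.541 or more. Gata3 in the cord had a log2 fold change of 0.33 ± 0.30 (SE, edgeR adjusted p = 0.999) for MPTP-SU against MPTP-Veh and Gata2 one of 0.02 ± 0.15 (adjusted p = 0.999). The difference between the tissues was tested in a fit of all 40 libraries. For MPTP-SU against MPTP-Veh the log2 fold change in the midbrain minus that in the cord was -2.17 ± 0.62 (SE) for Gata3 (adjusted p = 0.0182, edgeR) and -0.87 ± 0.25 for Gata2 (adjusted p = 0.0197). These 2 of the 7 passed, beside 16.8% of the genes tested. Both values include midbrain MPTP-Veh replicate 4, where Gata3 was at 133 CPM, and were not fitted without it. For MPTP-Veh against Con none of the 7 passed, beside 3.12%. None passed in the other comparisons, beside 0% for both antagonists against MPTP-SU, 0.379% for MPTP-SU, 0.494% for MPTP-SU+S and 0.471% for MPTP-SU+T against Con, and 1.26% for all MPTP groups against Con.

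Whether the genes moved with the plane of dissection was examined with marker genes of the regions around the midbrain. A list of 10 genes for the hindbrain held 8 Hox genes, none of which exceeded 2.16 CPM in a midbrain library or passed the filter on low counts. The list therefore rests on Slc6a5 and Glra1, genes of glycine transmission, which are most abundant in the hindbrain and spinal cord. The summed CPM of the list was 15.2 to 37.6 for Con, 24.6 to 57.3 for MPTP-Veh, 9.0 to 21.3 for MPTP-SU, 19.3 to 65.7 for MPTP-SU+S and 11.7 to 33.0 for MPTP-SU+T. The MPTP-Veh libraries thus all lay above the MPTP-SU libraries. Glra1 itself was called lower in MPTP-SU than in MPTP-Veh, with a log2 fold change of -1.04 ± 0.31 (SE, edgeR adjusted p = 0.0282), beside 9.1% of all genes called lower. Of the noradrenergic markers of the locus coeruleus, which lies in the pons, Dbh reached at most 1.66 CPM, and none of the 4 passed the filter on low counts.

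Each gene was correlated with the hindbrain list across the 20 midbrain libraries, and the share of all genes that follow the list this closely was not computed for this measure. The Pearson r with the mean log2 CPM of the list was 0.726 for Gata3 (rho 0.847, permutation p of r 0.0001), 0.674 for Fev (rho 0.668, permutation p of r 0.00102), 0.664 for Gata2 (rho 0.755, permutation p of r 0.00079), 0.621 for Slc6a4 (rho 0.725, permutation p of r 0.00237) and 0.615 for Tph2 (rho 0.648, permutation p of r 0.00309). Htr1a had an r of 0.493 (rho 0.451, permutation p of r 0.0267) and Gch1 an r of 0.171 (rho 0.0526, permutation p of r 0.469). For Htr1a the permutation p adjusted over the 7 genes was not below 0.05 when any 1 of 4 libraries was left out. The relation was present within groups as well: with group means removed, r was 0.674 for Tph2, 0.698 for Slc6a4, 0.690 for Fev, 0.653 for Gata3 and 0.493 for Gata2. Without MPTP-SU+S replicate 1 and MPTP-SU replicate 3, the libraries farthest from the median of the list, r was 0.578 for Tph2 and 0.778 for Gata3. The 7 permutation p-values printed here are not adjusted.

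A fit with group and list level together asked the same question over all genes. None of the 7 had a slope on the hindbrain list at an adjusted p below 0.05, beside 0.0962% of 16629 genes. The slope, in log2 CPM per log2 CPM, was 0.99 ± 0.28 (SE, n = 20) for Tph2 (adjusted p = 0.174, edgeR), 1.05 ± 0.24 for Slc6a4 (adjusted p = 0.0880) and 0.95 ± 0.28 for Fev (adjusted p = 0.218). A slope of 1 means that gene and list differed between libraries of a group by the same factor. It was 0.49 ± 0.15 for Gata3 (adjusted p = 0.239), 0.26 ± 0.10 for Htr1a (adjusted p = 0.486), 0.16 ± 0.07 for Gata2 (adjusted p = 0.701) and 0.11 ± 0.12 for Gch1 (adjusted p = 0.983).

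Other regional lists gave calls for Gata3 and Htr1a. On 4 tested genes of the cerebellum, which lies just caudal to the midbrain, Gata3 had a slope of 1.25 ± 0.19 (SE, edgeR adjusted p = 0.00356), beside 3.21% of genes called, and it was called with each library left out in turn (slopes of 0.96 to 1.40). On 6 genes of the thalamus, which lies rostral to the midbrain, Gata3 had a slope of -0.65 ± 0.12 (adjusted p = 0.00342), beside 3.16% of genes, with slopes of -0.70 to -0.48 and adjusted p-values of at most 0.0218 when libraries were left out. Gata3 was thus higher in libraries with a higher level of the cerebellum list and a lower level of the thalamus list. The cerebellum list held 6 genes, of which these 4 passed the filter on low counts. It is not particular to that region: it summed to 19.2 to 23.1 CPM in Con spinal cord and to 27.1 to 52.2 CPM in Con midbrain. The isthmus list held 6 patterning genes of the midbrain itself and of the isthmus, where it meets the hindbrain, and so does not mark the caudal border alone. On this list Htr1a had a slope of 0.54 ± 0.12 (adjusted p = 0.0475), beside 0.631% of genes, but the call was lost in 15 of 20 fits with a library left out. Slc6a4 had slopes of the same signs as Gata3, at 1.40 ± 0.36 on the isthmus list (adjusted p = 0.0999), 1.35 ± 0.59 on the cerebellum list (adjusted p = 0.152) and -0.75 ± 0.28 on the thalamus list (adjusted p = 0.193). Tph2 had 1.24 ± 0.41, 1.34 ± 0.58 and -0.74 ± 0.29 on these lists, with adjusted p-values of 0.284, 0.147 and 0.227. None of the 7 was called on the hypothalamus list (0.018% of genes), the cortex and hippocampus list (0%) or the dopaminergic list (0.0661%). The slope of Gch1 on the dopaminergic list, 0.75 ± 0.18, had an adjusted p of 0.347, and that of Tph2 was -0.21 ± 0.71 (adjusted p = 0.898).

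**Figure D5:**
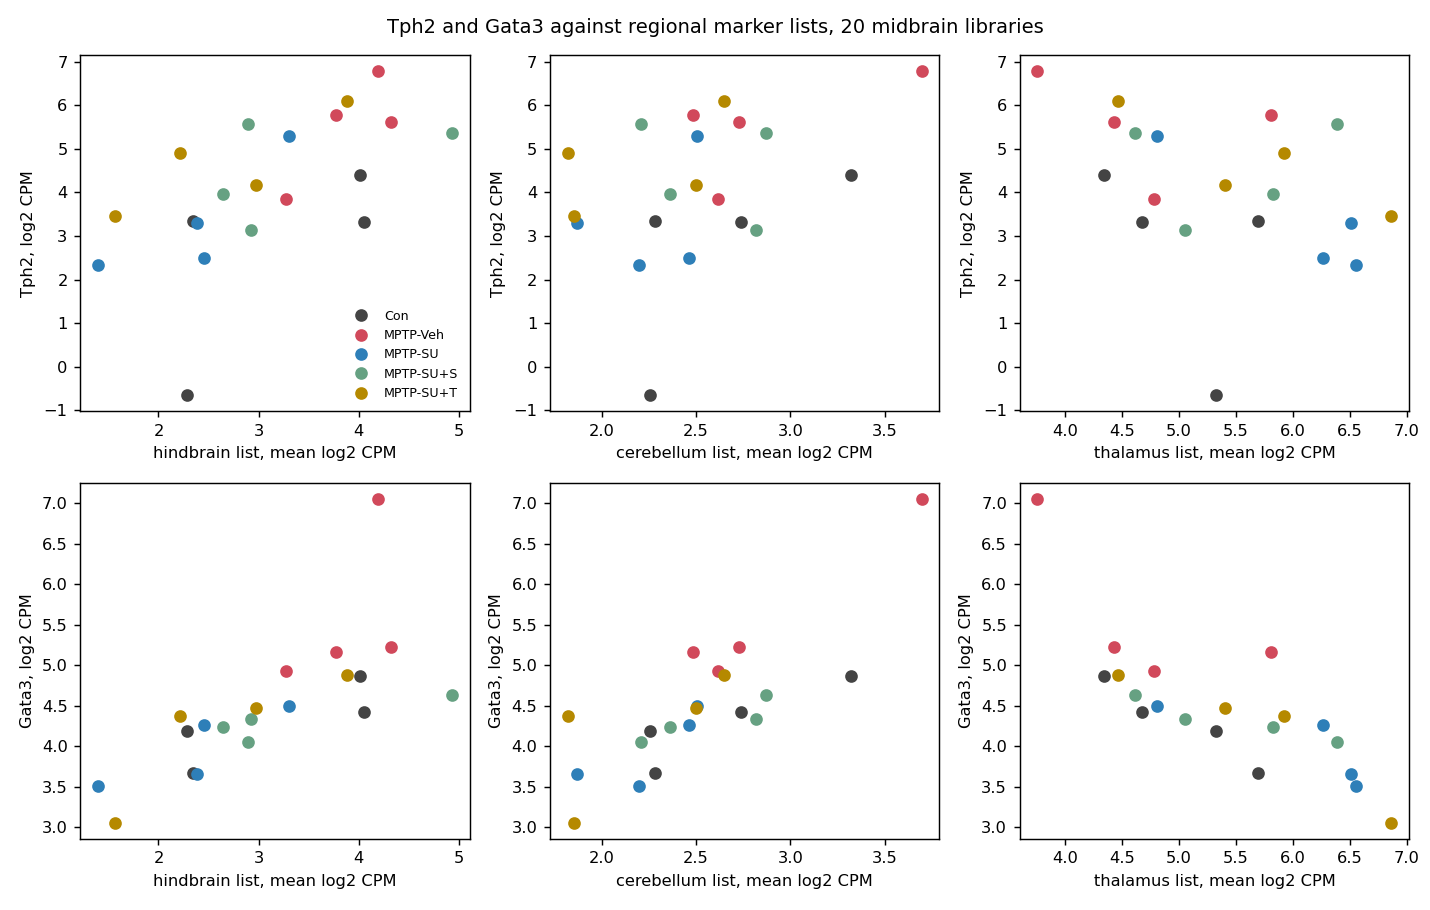
Log2 CPM of Tph2 (top) and Gata3 (bottom) against the mean log2 CPM of the hindbrain, cerebellum and thalamus lists in the 20 midbrain libraries, coloured by group. Gata3 is higher where the cerebellum list is higher (slope 1.25 with group in the fit) and lower where the thalamus list is higher (slope -0.65), and the lowest Tph2 point is Con replicate 3.

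These regional levels also moved with the groups. Against Con, the list of cortex and hippocampus was at 335 to 995 summed CPM in Con and 211 to 706 in MPTP-Veh, with 0 of its 9 tested genes positive and a median log2 fold change of -1.87. The choroid plexus list had 0 of 5 positive and a median of -2.16. None of these genes was called there, but in all MPTP groups against Con 7 of 9 and 5 of 5 were called lower, beside 1.27% of genes in either direction. With the cortex and hippocampus list as a term, the log2 fold change of Tph2 for MPTP-Veh against Con was 3.42 (adjusted p = 0.863). In MPTP-SU against MPTP-Veh, the summed CPM of the thalamus list was 113 to 469 in MPTP-Veh, with a median of 203, and 273 to 1081 in MPTP-SU, with a median of 880, and its gene Ntng1 was called higher in MPTP-SU with a log2 fold change of 1.36 ± 0.41 (SE, edgeR adjusted p = 0.0313). The isthmus list was at 43.2 to 64.0 CPM in MPTP-Veh and 22.8 to 51.2 in MPTP-SU, and Pax5 of that list fell by 1.76 on the log2 scale (edgeR adjusted p = 0.0197). Over all genes tested, 13.5% were called in this comparison in either direction. With the level of the hindbrain, thalamus or isthmus list as a term in the fit, the calls of MPTP-SU against MPTP-Veh ended. The share of all genes called in those fits is not given, so the loss of calls cannot be read as particular to these genes. With the hindbrain list, the log2 fold change of Gata3 went from -1.85 to -1.10 (adjusted p = 0.187), that of Gata2 from -0.85 to -0.62 (adjusted p = 0.164) and that of Fev from -2.78 to -1.56 (adjusted p = 0.252). The log2 fold change of Tph2 went from -1.94 to -0.67 (adjusted p = 0.593) with this list. For MPTP-Veh against Con it went from 2.46 to 1.83 (adjusted p = 0.263), where no member had been called. With the thalamus list they were -0.86 (adjusted p = 0.231) for Gata3, -0.55 (adjusted p = 0.198) for Gata2 and -1.97 (adjusted p = 0.245) for Fev. With the isthmus list they were -1.32, -0.72 and -1.94. The cortex and hippocampus list as a term left all 3 calls in place. The share of all genes called in that fit is not given either, so its contrast with the other lists cannot be read as particular to these genes. Since list level and group differ together, treatment and the plane of dissection cannot be told apart for these genes.

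The genes most like Tph2 over the 20 midbrain libraries were sought among 14953 tested genes with a mean of at least 1 CPM. Slc6a4 ranked 1 and Fev 2 by Pearson r of log2 CPM, followed by Slc17a8, a vesicular glutamate transporter also found in raphe neurons, with an r of 0.836, and by En2, a transcription factor of the midbrain and hindbrain boundary, with 0.788. B230311B06Rik (0.765), Irx2 (0.750), Dao (0.750), Pax5 (0.718) and Chrna2 (0.707) were also among the first 10. Among the 5 most opposed were Dlx1 (-0.795), Qrfpr (-0.778), Isl1 (-0.772) and Dlx2 (-0.753), of which Dlx1 and Dlx2 are transcription factors of the forebrain. With group means removed, Slc6a4 (0.974), Fev (0.780), B230311B06Rik (0.753), Pax5 (0.735) and Slc17a8 (0.732) stayed among the first 10, joined by Anapc13, Btd, Dydc2 and Mxra7. Of the other members, Gata3 ranked 65, Gch1 68, Gata2 263 and Htr1a 3790. These are descriptions over libraries that share groups and dissections.

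The rest of the serotonergic pathway was counted from lists of its genes. Of 10 other genes of serotonin synthesis, storage, uptake and breakdown, 9 were tested and none was called for MPTP-Veh against Con, with a median log2 fold change of 0.14. For MPTP-SU against MPTP-Veh 1 of the 9 was called, where 9.1% of all genes tested were called lower and 13.5% in either direction. This was Slc29a4, a low-affinity transporter of monoamines. It fell from 34.7 ± 9.85 CPM (SD, n = 4) to 19.9 ± 3.41 CPM, with a log2 fold change of -0.80 ± 0.18 (SE, edgeR adjusted p = 0.0104). Ddc, the enzyme of the second step of both serotonin and dopamine synthesis, had log2 fold changes of 0.58 ± 0.28 (adjusted p = 0.220) and -0.69 ± 0.28 (adjusted p = 0.0850) in the 2 comparisons. Of the 7 other genes of tetrahydrobiopterin synthesis and recycling none was called in either. Qdpr, which recycles the cofactor, had a mean of 342 ± 188 CPM (SD) with MPTP-Veh against 196 ± 10.98 CPM with Con (adjusted p = 0.130), and a mean of 249 ± 15.9 CPM without MPTP-Veh replicate 4, which was at 623 CPM.

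Among 7 other transcription factors of the serotonergic fate, none was called for MPTP-Veh against Con and 3 fell in MPTP-SU against MPTP-Veh, beside 9.1% of all genes tested, with a median log2 fold change of -0.56 over the 7. Among them, En1 fell by 1.75 on the log2 scale (adjusted p = 0.00817) and En2 by 0.89 (adjusted p = 0.0419). En1 and En2 pattern the midbrain and anterior hindbrain and are also expressed in dopaminergic neurons. Of 11 tested serotonin receptors other than Htr1a, none was called for MPTP-Veh against Con, with 2 of 11 fitted values positive and a median log2 fold change of -0.41. In MPTP-SU against MPTP-Veh, which shares the MPTP-Veh libraries, 8 of the 11 were positive with a median of 0.45. The 1 receptor called, Htr1d, fell by 0.92 (edgeR adjusted p = 0.0187), beside 9.1% of all genes called lower. Htr7 and Htr5a, at 0.45 ± 0.17 (adjusted p = 0.0684) and 0.55 ± 0.22 (adjusted p = 0.0714), did not pass. Across all 4 MPTP groups against Con, Htr3a was lower, with a log2 fold change of -1.27 ± 0.32 (SE, edgeR adjusted p = 0.0450). In that comparison 1.27% of all genes were called in either direction. Of 9 tested genes that accompany Gata2 and Gata3 in GABAergic and spinal neurons and of 4 GABAergic markers, none was called in either comparison. Tal1, a partner of GATA factors, had a log2 fold change of 0.50 ± 0.23 (adjusted p = 0.197) for MPTP-Veh against Con, and Gad1 one of -0.08 ± 0.16 (adjusted p = 0.759). Of 10 dopaminergic markers, Drd2 alone was called, falling by 0.70 (edgeR adjusted p = 0.00974) in MPTP-SU against MPTP-Veh, beside 9.1% of all genes called lower.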

How the data were processed

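Whole-transcriptome libraries were made from poly(A)-selected RNA of midbrain and spinal cord and sequenced in pairs of reads, with reads trimmed by fastp and processed with STAR and Salmon according to the study's methods and the submitters' processing notes, which also name GATK and the build GRCm39. Versions, annotation, strand setting and dissection plane are not given in the sources used here. The deposited values are estimated counts per gene symbol, which the authors had rounded to whole numbers and not normalized. Overlapping and antisense genes (Gata3os beside Gata3) can therefore share reads.

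All 20 libraries of a tissue entered 1 edgeR 4.0.16 quasi-likelihood fit (R 4.3.3) after filterByExpr and TMM scaling, which left 16629 genes for midbrain and 16682 for spinal cord. P-values were adjusted over all tested genes by the Benjamini-Hochberg method. A gene was called at an adjusted p below 0.05 and a fold change above 1.5. Log2 CPM used a prior count of 2, correlations used 100000 permutations, and single comparisons used two-sided exact permutation tests. DESeq2 1.42.0, limma-voom (limma 3.58.1), other scalings, filters, thresholds and covariates, and leaving out each library, were alternatives. Slopes were fitted with group and the mean log2 CPM of a regional list as terms. Genes most like Tph2 were the 10 with the highest and the 5 with the lowest Pearson r among genes with a mean of at least 1 CPM, and other genes named are those called in a list or the chief enzymes and markers of it. On simulated data for MPTP-Veh against Con, with 16629 genes in the midbrain, 74 of 100 genes changed by a fold of 2 and 98 of 100 changed by a fold of 4 were recovered, with 5 false calls. The changed genes were drawn at random from those with a mean count above 20, and libraries were drawn independently. The recovery does not carry over to members as variable as Tph2 and Fev, which had fitted changes above a fold of 4 and were not called. Replicates were taken as the labels number them, and nothing states that they were separate mice, so p-values measure only the spread between these libraries. The 7 genes and all lists were chosen with earlier results of these data known. Promoters came from RefSeq (GRCm38.p6), in which all 7 genes had an entry. Some genes that these rules select are not reported here.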

Additional observations from a re-analysis of the deposited data

Results flagged for a closer look

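Among the 7 genes, 4 of 69 groups of 4 libraries held a library far from the other 3, and chance gives about 1 in 20 such groups. Tph2 was at 39.4 CPM in midbrain MPTP-SU replicate 1, where the other 3 libraries were at 4.94 to 9.68 CPM. Gata3 was at 133 CPM in midbrain MPTP-Veh replicate 4, the library with 1.35% mitochondrial counts, where the others were at 30.4 to 37.3 CPM. Fev was at 3.18 CPM in midbrain MPTP-SU+T replicate 3, the library with the most Slc6a4, and at 1.03 to 1.08 CPM in the others. Slc6a4 was at 0.332 CPM, or 5 counts, in spinal cord Con replicate 1 and at 0 in the other 3. The part of dissection or library quality in these values was not tested.

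In 2 of 56 tests the effect differed between the tissues. For MPTP-SU against MPTP-Veh the log2 fold change in the midbrain minus that in the spinal cord was -2.17 for Gata3 (adjusted p = 0.0182, edgeR) and -0.87 for Gata2 (adjusted p = 0.0197). Both include midbrain MPTP-Veh replicate 4 and were not fitted without it.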

How the results depend on the processing

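No value that was followed for its sign changed direction. These were the log2 fold changes of Fev, Gata2 and Gata3 for MPTP-SU against MPTP-Veh and the correlations with the hindbrain list. The called slopes of Gata3 and Htr1a were followed with libraries left out. Counts of members called have no direction, and the sign of other fold changes was not followed. In MPTP-Veh against Con, where none of the 7 was called, 4 passed at an unadjusted p below 0.05 with the fold threshold and 2 with DESeq2, and leaving out single libraries gave 0 to 2 (2 without MPTP-Veh replicate 3). In MPTP-SU against MPTP-Veh, where 3 were called, the count was 0 with the hindbrain, isthmus or thalamus list as a term or with the libraries of the 2 groups alone, 1 without Con replicate 3 and MPTP-Veh replicate 4 together, and 1 to 4 with single libraries left out. These list terms other than hindbrain, and the joint omission, were chosen after seeing the data. The share of all genes called in each setting is not set beside these counts of members. Leaving out libraries moved the log2 fold change of Fev between -4.41 and -2.09, of Gata2 between -0.99 and -0.57 and of Gata3 between -2.06 and -1.07. At an unadjusted p, 1 member passed in MPTP-SU+T against Con (Gch1) and 1 in MPTP-SU+S against MPTP-SU in the spinal cord (Gata3). The number of members with a called slope was 0 on the hindbrain list and 1 on each of the isthmus, cerebellum and thalamus lists. The correlation of Htr1a with the hindbrain list was 0.39 to 0.61 with single libraries left out. Its permutation p, adjusted over the 7 genes, was not below 0.05 without Con replicate 1, MPTP-SU replicate 3, MPTP-SU+T replicate 3 or MPTP-SU+T replicate 4. In Con midbrain against Con spinal cord, 4 or 5 were called, with Gata2 lost without spinal cord Con replicate 3. Counting each main result once per setting, 211 values under other settings and 314 with libraries left out were classed as kept. Many of these are counts of 0 members that stayed at 0 where few genes of any kind were called. In the main fits at most 0.03% of genes were called in a spinal cord comparison, and 0% for either antagonist against MPTP-SU in the midbrain. The totals of kept values therefore say little about how stable the calls are. A count within 1.5-fold of the main count was classed as kept, so 4 members called in place of 3 did not register. Under other settings 12 counts moved, and with libraries left out 2 counts moved and 4 correlations weakened. Among single fold changes and slopes, 14 calls were lost under other settings and 20 with libraries left out.

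Same-numbered midbrain libraries had mean deviation correlations of 0.0943, 0.0384, -0.0194 and 0.0776 for numbers 1 to 4, beside -0.014 for libraries of different numbers and groups. The numbers were not taken to pair samples. These correlations lie within 1 tissue, so they cannot tell whether midbrain and cord libraries of the same number came from the same mouse. The main fit of all 40 libraries treated the tissues as independent. With the replicate number as a block, the same 3 members were called in MPTP-SU against MPTP-Veh (Fev at -2.97, Gata2 at -0.84 and Gata3 at -1.81). Depth limits Fev most, with at most 82 counts in a library, and Slc6a4 in the spinal cord.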
